A study of Danio rerio with 6 samples.

Results

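The genes described here encode the alpha subunits of transducin, the opsin kinases and the visual arrestins of rod and cone photoreceptors. They were chosen by symbol (gnat1, gnat2, grk1a, grk1b, grk7a, grk7b, arr3a, arr3b, saga and sagb), and 9 of the 10 had a row among the 14791 genes of the count tables; arr3b was not analysed here. All 9 passed the filter on low counts. The choice was made with earlier results of these same pools in view, among them a low value of grk1a in the exposed pools, so the differences given below describe the genes and are no independent evidence that they respond as a set.

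The samples were 6 pools of whole zebrafish of the AB strain, each of 18 to 20 animals collected at 96 h post fertilization (hpf). Of these, 3 pools came from animals kept in 0.05% DMSO, the vehicle, and 3 from animals kept in the same vehicle with 4500 µg/L PCB-11, from 24 hpf on, in vials of 5 animals without their chorions. The compound PCB-11 (3,3'-dichlorobiphenyl) belongs to the polychlorinated biphenyls and carries few chlorines. The comparison asks which transcripts differ after exposure through late embryonic life. Nothing in the labels says whether the pools came from separate clutches. The p-values therefore rest on pool-to-pool variation alone, and some of it may be technical.

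In a photoreceptor, light-activated opsin loads transducin with GTP, and the transducin alpha subunit then switches on a phosphodiesterase that breaks down cyclic GMP and so closes the cation channels of the outer segment. The response ends when an opsin kinase phosphorylates the opsin and an arrestin caps it. Rods and cones run this cascade with separate gene copies, and the young zebrafish retina sees mainly with its cones, since rods mature later.

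Reads assigned to genes numbered 15705712 to 20479751 per pool, and levels are given in CPM, counts scaled to library size with TMM factors. In a whole-animal pool, fewer photoreceptors and less transcript per photoreceptor cannot be told apart. PCB-11 replicate 2 stood apart from the other pools on the first principal component, with a score of 36.9 against -16.4 to 9.31. This pool had the fewest reads in genes (15705712). Its share of counts outside genes was the largest, 39.12% against 31.44% to 34.99% in the other pools. It was also the highest pool for several genes of the eye, so values without it are given for all 9 genes and for many of the other results. The marker of rods, rho, averaged 2333 ± 377 CPM in DMSO (SD, n = 3 pools), and the ultraviolet cone opsin gene opn1sw1 ranged from 3009.7 to 4429 CPM in those pools, so transcripts of both photoreceptor classes were present.

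No transcript of the 9 passed the edgeR test between groups. The kinase genes grk1a and grk7a were lower in every PCB-11 pool than in any DMSO pool, as were 9.35% of all genes tested. Levels averaged 0.64 times the DMSO level for grk1a and 0.68 times for grk7a. The cone transducin gene gnat2 and the kinase gene grk1b were not lower, with ratios of 1.03 and 1.16. The remaining 5 genes lay between these, with ratios of 0.74 to 0.92.

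**Figure D1:**
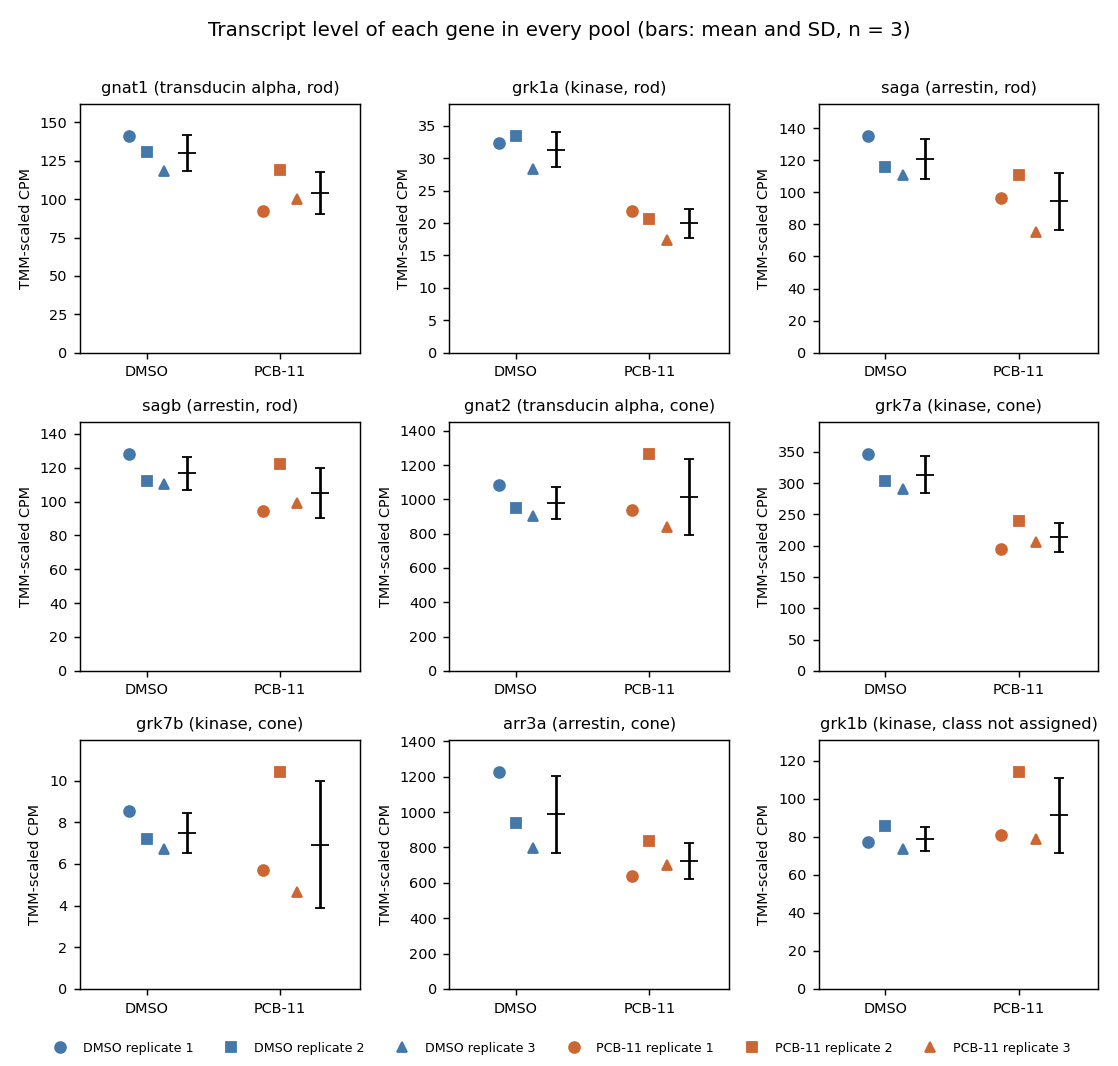
Level of each of the 9 genes in TMM-scaled CPM (vertical axis, from 0) in every pool, with DMSO pools in blue, PCB-11 pools in orange and the mean and SD of 3 pools as bars. For grk1a and grk7a all 3 PCB-11 pools sit under all 3 DMSO pools, while the groups overlap for the other 7 genes.

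Neither of the transducin alpha genes passed in edgeR, and the difference between their log2 fold changes was not tested. The rod gene gnat1 had 141, 131 and 118 CPM in the DMSO pools and 92.4, 119 and 100.4 CPM in the PCB-11 pools, each in the order of replicates 1, 2 and 3. PCB-11 replicate 2 reached the lowest DMSO pool, so the groups overlapped, and the means were 129.8 ± 11.8 and 104 ± 13.5 CPM (SD, n = 3 each). The log2 fold change of gnat1, PCB-11 minus DMSO, was -0.32 ± 0.12 (SE; edgeR quasi-likelihood test, adjusted p = 0.392), or -0.43 without PCB-11 replicate 2. The cone gene gnat2 had 1084, 953 and 902 CPM in the DMSO pools and 939, 1264 and 838 CPM in the PCB-11 pools. Its highest and its lowest pool were both exposed ones, PCB-11 replicates 2 and 3, and the log2 fold change was 0.05 ± 0.17 (edgeR adjusted p = 0.918). Without PCB-11 replicate 2 it was -0.14.

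The opsin kinase genes grk1a and grk7a held the lowest values relative to the controls, and their paralogues grk1b and grk7b did not. The gene grk1a, a rhodopsin kinase of rods, had 32.3, 33.4 and 28.3 CPM in the DMSO pools and 21.8, 20.6 and 17.4 CPM in the PCB-11 pools. The groups were separate, with means of 31.3 ± 2.66 and 19.9 ± 2.29 CPM. Its log2 fold change was -0.65 ± 0.12 (edgeR adjusted p = 0.21), and without PCB-11 replicate 2 it was -0.68. The cone opsin kinase gene grk7a had 346, 304 and 289.9 CPM in the DMSO pools and 195, 239 and 206 CPM in the PCB-11 pools, again without overlap. Group means of grk7a were 313 ± 29.4 and 213 ± 22.7 CPM, a log2 fold change of -0.55 ± 0.12 (edgeR adjusted p = 0.255), or -0.64 without PCB-11 replicate 2. DESeq2, run as an alternative, called grk1a (adjusted p = 0.00384) and grk7a (adjusted p = 0.00495) lower. Limma-voom called neither, with adjusted p of 0.217 and 0.243. Over the alternatives run, adjusted p ranged from 0.00384 to 0.825 for grk1a and from 0.00495 to 0.825 for grk7a.

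The paralogues of these kinases showed other values. The second grk1 gene, grk1b, was assigned to neither cell class here. It had 77.5, 85.7 and 73.6 CPM in the DMSO pools and 81.1, 114 and 78.9 CPM in the PCB-11 pools. Only PCB-11 replicate 2 lay above the DMSO range, and the log2 fold change of 0.21 ± 0.15 (edgeR adjusted p = 0.568) became 0.02 without that pool. The second cone kinase gene, grk7b, rested on 88 to 170 counts per pool. It had 8.54, 7.19 and 6.73 CPM in the DMSO pools and 5.73, 10.4 and 4.64 CPM in the PCB-11 pools. PCB-11 replicates 1 and 3 were its lowest pools and PCB-11 replicate 2 its highest, which left a log2 fold change of -0.12 ± 0.28 (edgeR adjusted p = 0.872) with that pool and -0.53 without it (adjusted p = 0.428).

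Arrestin transcripts were lower on average in the exposed pools, with overlapping groups. In zebrafish arr3a is the arrestin of red- and green-sensitive cones. It had 1225, 940.1 and 795 CPM in the DMSO pools and 639, 838 and 700.5 CPM in the PCB-11 pools. DMSO replicate 1 was by far the highest pool and PCB-11 replicate 2 lay above DMSO replicate 3. The log2 fold change of arr3a was -0.44 ± 0.18 (edgeR adjusted p = 0.402) and -0.26 without DMSO replicate 1. Leaving out PCB-11 replicate 2 instead gave -0.56 for arr3a. The rod arrestin gene saga had 135, 116 and 111 CPM in the DMSO pools and 96.7, 111 and 75.1 CPM in the PCB-11 pools, and its log2 fold change was -0.35 ± 0.15 (edgeR adjusted p = 0.411). PCB-11 replicate 3 was the lowest pool for saga, and without it the log2 fold change was -0.21. With PCB-11 replicate 2 left out instead, it was -0.49. The other rod arrestin gene, sagb, had 128, 112 and 110.3 CPM in the DMSO pools and 94.2, 122 and 99 CPM in the PCB-11 pools. Its log2 fold change was -0.16 ± 0.12 (edgeR adjusted p = 0.61), the smallest departure among the rod genes, and -0.28 without PCB-11 replicate 2.

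**Figure D2:**
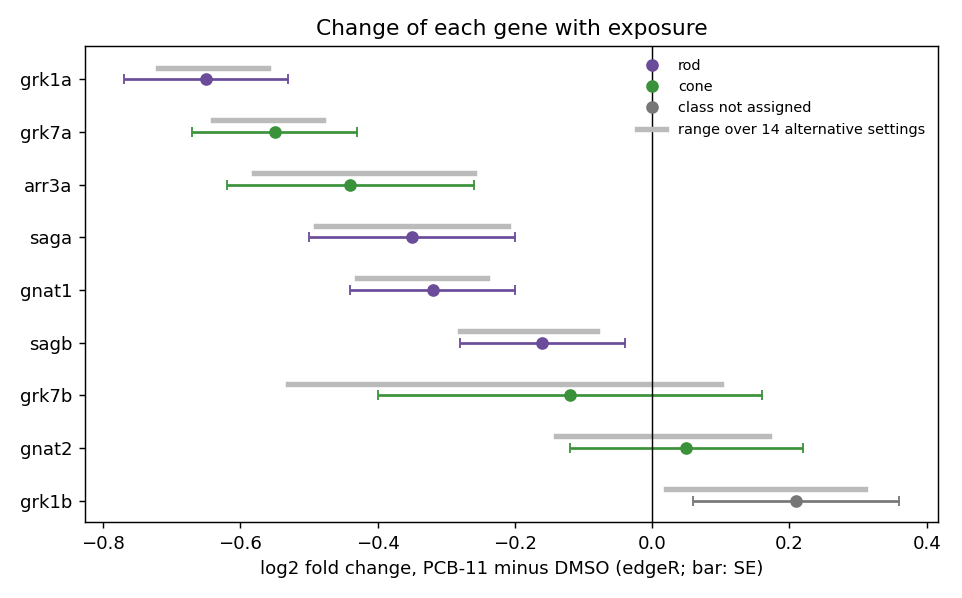
Log2 fold change of each gene, PCB-11 minus DMSO, with its standard error from edgeR (horizontal axis), coloured by cell class, and above it in grey the range over 14 alternative settings. The range stays below 0 for 6 genes, from -0.72 to -0.56 for grk1a and from -0.28 to -0.08 for sagb, and crosses 0 for grk7b and gnat2.

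Counted together, 7 of the 9 genes had lower and 2 had higher means in PCB-11. At an adjusted p under 0.05, edgeR called 0 of the 9, where it called 0.00772% of all 12960 genes tested lower and 0.0386% higher. At an unadjusted p under 0.05, 5 of the 9 (gnat1, grk1a, grk7a, arr3a and saga) were lower and 0 higher, where 6.04% of all genes were lower and 5.8% higher. DESeq2 called 2 of the 9 lower and 0 higher, against 0.417% and 0.482% of its genes. Limma-voom called 0, as it did over all genes (0%), with 5 lower and 0 higher at an unadjusted p under 0.05 against 6.51% and 5.37%. Groups did not overlap, with PCB-11 lower, in 2 of the 9 and in 9.35% of all genes tested, and with PCB-11 higher in 0 of the 9 and in 10% of all genes. Because the choice of these genes drew on this same contrast, nothing is read from these shares. The count of 5 was 2 without DMSO replicate 1, without DMSO replicate 2 or without PCB-11 replicate 1, and 3 without PCB-11 replicate 3. Without PCB-11 replicate 2 it was 7, with sagb and grk7b added. Whether having fewer pools moved these counts was not tested.

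Rod and cone genes were then compared as classes. The median log2 fold change was -0.34 over the 4 rod genes and -0.28 over the 4 cone genes, where the median over all genes tested was 0.0015. The gene grk1b, at 0.21, entered neither median because its cell class was left unassigned, and the medians depend on that choice. The cone median moved to -0.54 without PCB-11 replicate 2, to -0.14 without DMSO replicate 1, to -0.18 without PCB-11 replicate 1 and to -0.16 without PCB-11 replicate 3. The rod median ranged from -0.46 to -0.25 as pools were left out. Summed over the 4 rod genes, levels were 437, 392 and 367 CPM in the DMSO pools and 305, 373 and 292 CPM in the PCB-11 pools, and PCB-11 replicate 2 lay above DMSO replicate 3. The cone sum was 2664, 2203 and 1994 CPM in the DMSO pools and 1778, 2351 and 1749 CPM in the PCB-11 pools, with the same replicate 2 inside the DMSO range.

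A ratio of 2 genes taken within a pool does not depend on library scaling. The size of such a ratio also reflects transcript length, so only its difference between groups is described. For transducin, the log2 ratio of the rod gene to the cone gene was -2.94, -2.87 and -2.94 in the DMSO pools and -3.34, -3.41 and -3.06 in the PCB-11 pools. The ratio of gnat1 to gnat2 was thus lower in every exposed pool than in any control. The mean difference was -0.36 on the log2 scale with a pooled SD of 0.13, and -0.29 without PCB-11 replicate 2.

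In the kinases and the arrestins the groups overlapped. The log2 ratio of grk1a to grk7a was -3.42, -3.18 and -3.36 in the DMSO pools and -3.16, -3.53 and -3.57 in the PCB-11 pools. The difference of -0.10 was smaller than the pooled SD of 0.18. The log2 ratio of the summed rod arrestins to arr3a was -2.22, -2.04 and -1.85 in DMSO and -1.74, -1.84 and -2.01 in PCB-11. Its difference of 0.17 was about the size of the pooled SD of 0.16 and pointed the other way. No p-value is given for these ratios, because the genes were chosen with results known.

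**Figure D3:**
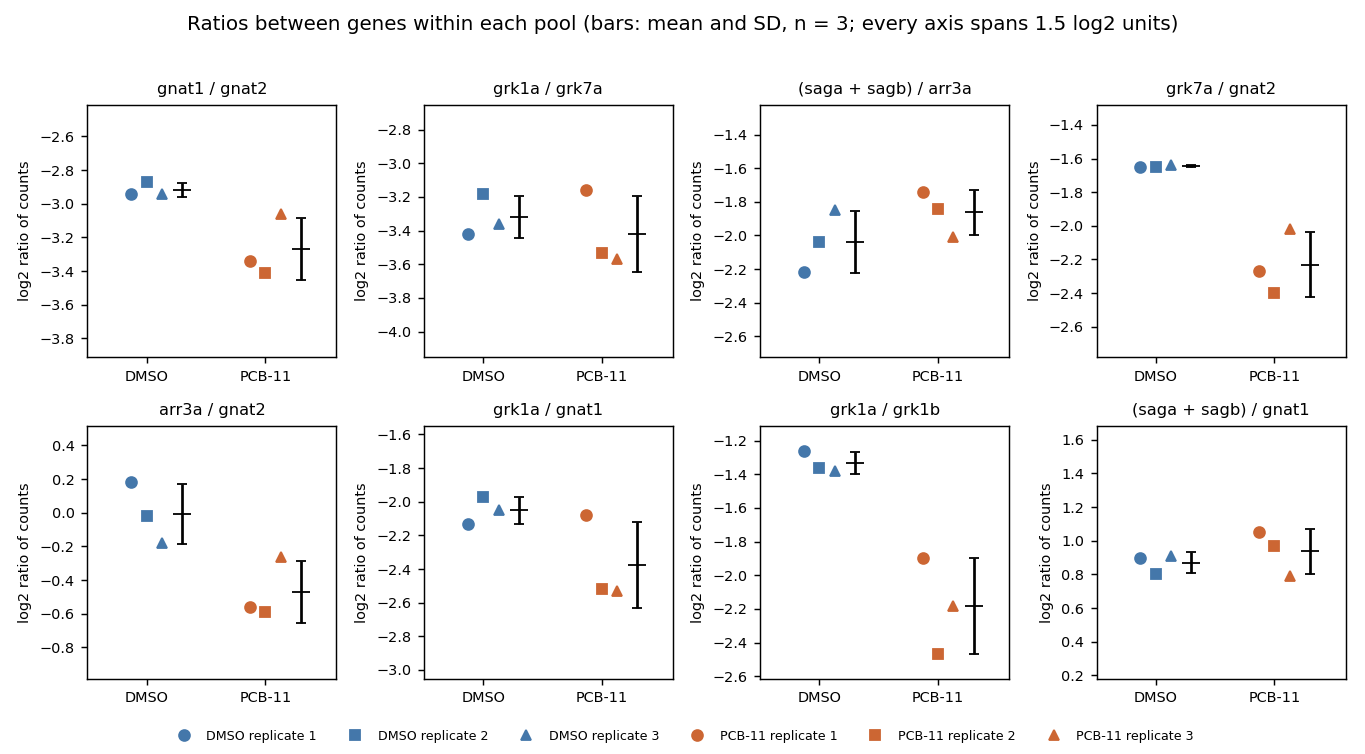
Log2 ratios of counts between genes within each pool (vertical axes, each spanning 1.5 log2 units), with DMSO pools in blue, PCB-11 pools in orange and the mean and SD of 3 pools as bars. PCB-11 pools lie wholly below DMSO pools for gnat1 to gnat2, grk7a to gnat2, arr3a to gnat2 and grk1a to grk1b, and the groups overlap in the other 4 ratios.

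The ratios of the cone genes grk7a and arr3a to the cone transducin gene gnat2 were lower in every exposed pool than in any control. They are ratios of transcripts in whole-animal pools. The mix of cone types, of which arr3a covers the red- and green-sensitive ones, was not tested. These further ratios were chosen after the values of the genes had been seen. The log2 ratio of grk7a to gnat2 was -1.65, -1.65 and -1.64 in the DMSO pools, a spread of 0.01 (SD), and -2.27, -2.40 and -2.02 in the PCB-11 pools. The exposed pools were lower by -0.59 on average, and by -0.50 without PCB-11 replicate 2. The log2 ratio of arr3a to gnat2 was 0.18, -0.02 and -0.18 in DMSO and -0.56, -0.59 and -0.26 in PCB-11, a difference of -0.46. PCB-11 replicate 3 was the exposed pool nearest to the controls in both ratios.

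Ratios between the rod genes differed less between groups than those of grk7a and arr3a to gnat2. A further cone ratio, grk7a to grk7b, differed by -0.36 with overlapping groups and a pooled SD of 0.34, and by -0.11 without PCB-11 replicate 2. The log2 ratio of grk1a to gnat1 was -2.13, -1.97 and -2.05 in DMSO and -2.08, -2.52 and -2.53 in PCB-11. PCB-11 replicate 1 thus lay among the controls and the other exposed pools lay below them. The summed rod arrestins relative to gnat1 differed by 0.07 between groups (0.87 ± 0.06 in DMSO and 0.94 ± 0.13 in PCB-11, log2, SD, n = 3). Rhodopsin relative to gnat1 differed by -0.01 (4.16 ± 0.13 and 4.15 ± 0.14). Across all ratios computed, the difference between groups was largest for grk1a against its paralogue grk1b, a gene assigned to neither class. These genes had the lowest and the highest log2 fold change of the 9, so the ranking adds nothing to those values. Their log2 ratio was -1.26, -1.36 and -1.38 in DMSO and -1.90, -2.47 and -2.18 in PCB-11, a difference of -0.85, or -0.71 without PCB-11 replicate 2. Reads from stretches shared by paralogues could be assigned to either copy or dropped in such counting, and this was not checked here.

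Values of the rest of the phototransduction pathway pointed in both directions. Of 62 further genes listed, 45 had a row in the tables and 43 were tested. Their median log2 fold change was -0.05. In edgeR 0 passed over all genes, 3 were lower and 4 higher at an unadjusted p under 0.05, and DESeq2 called 0. Of all genes tested, 6.04% were lower and 5.8% higher at that unadjusted p. By class, the median was -0.01 over 8 rod genes, 0.12 over 14 cone genes and -0.13 over 21 genes used by both cell types or not assigned to a class. Without PCB-11 replicate 2 these medians were -0.10, -0.14 and -0.24. The rod median counts gnb1a and gnb1b, and the share of their transcripts that came from rods was not tested.

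Among the 8 genes listed as rod genes of the pathway, the 3 with the smallest p had values near those of gnat1 and saga. The other 5 did not. The gene rho had a log2 fold change of -0.34 ± 0.16 (controls 2333 ± 377 CPM, exposed pools 1844 ± 257 CPM). The catalytic subunit gene of the rod phosphodiesterase, pde6a, had -0.29 ± 0.14, and si:dkey-22i16.2, which RefSeq lists as a synonym of the rod channel gene cnga1a, had -0.30 ± 0.19. Their edgeR adjusted p were 0.443, 0.449 and 0.53, and none passed. Their log2 fold changes were -0.45, -0.39 and -0.47 without PCB-11 replicate 2. The transducin beta subunit genes gnb1a and gnb1b lay at 0.00 ± 0.11 and -0.01 ± 0.11, and the gamma subunit gene gngt1 at 0.10 ± 0.17. Whole-animal pools do not show how much of gnb1a and gnb1b came from rods. Their values are therefore not read as those of rods. The phosphodiesterase gamma subunit gene pde6g lay at 0.05 ± 0.14, and zgc:112320, which RefSeq lists as a synonym of pde6ga, at 0.47 ± 0.37. Values of gnb1a, gnb1b, gngt1, pde6g and zgc:112320 were -0.07, -0.09, -0.09, -0.11 and 0.26 without PCB-11 replicate 2.

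Among the 14 cone genes tested, 9 were higher and 5 lower. At an unadjusted p under 0.05 in edgeR, 3 were higher and 2 lower, against 5.8% and 6.04% of all genes. The red cone opsin gene opn1lw2 had 561, 607 and 631 CPM in DMSO and 727, 1158 and 803 CPM in PCB-11, without overlap. Groups were likewise separate, with PCB-11 higher, in 10% of all genes tested. The log2 fold change of opn1lw2 was 0.58 ± 0.18 (edgeR adjusted p = 0.321), and 0.35 without PCB-11 replicate 2. Of the green cone opsin genes, opn1mw2 had 15.8, 18.8 and 22 CPM in DMSO and 21.6, 32.5 and 39.3 CPM in PCB-11, where 1 exposed pool lay inside the DMSO range (0.72 ± 0.21, adjusted p = 0.321). The green cone opsin gene opn1mw1 was at a far higher level, with 670.2 ± 68.5 CPM in DMSO and 875 ± 262 CPM in PCB-11. Its groups overlapped (0.39 ± 0.20, adjusted p = 0.466), and it lay at 0.12 without PCB-11 replicate 2. The cone sodium-calcium exchanger gene slc24a2 averaged 15.6 ± 1.85 CPM in the controls and 10.7 ± 2.77 CPM in the exposed pools (-0.54 ± 0.19, adjusted p = 0.382). Its groups did not overlap, narrowly, with 16.1, 17.1 and 13.5 CPM in DMSO and 13.2, 11.2 and 7.74 CPM in PCB-11. The catalytic subunit gene of the cone phosphodiesterase, pde6c, had 694, 675 and 631 CPM in DMSO and 534, 609 and 456 CPM in PCB-11, again without overlap (-0.32 ± 0.13, adjusted p = 0.409). It lay at -0.43 without PCB-11 replicate 2. Against it, the cone transducin gamma subunit gene gngt2a was higher on average, with overlapping groups (0.64 ± 0.23, adjusted p = 0.385), and lay at 0.35 without that pool. The ultraviolet opsin gene opn1sw1 lay at -0.14 ± 0.23, at -0.39 without PCB-11 replicate 2 and at 0.04 without DMSO replicate 1. The other red cone opsin gene, opn1lw1, had 5.1, 0.885 and 0.662 CPM in DMSO and 1.08, 1.17 and 1.47 CPM in PCB-11. Its log2 fold change of -0.80 ± 0.69 (adjusted p = 0.636) rested on DMSO replicate 1 and was 0.68 without that pool.

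Among the shared genes, gucy2f encodes a guanylate cyclase that restores cyclic GMP after light. Like grk1a, grk7a, slc24a2 and pde6c, gucy2f was lower in every exposed pool than in any control, as were 9.35% of all genes tested. Its levels were 8.83, 8.28 and 7.64 CPM in DMSO and 5.78, 5.77 and 4.9 CPM in PCB-11, without overlap, with a log2 fold change of -0.59 ± 0.14 (edgeR adjusted p = 0.308). The second cyclase gene, gc3, lay at -0.30 ± 0.15 (adjusted p = 0.461), and at -0.45 without PCB-11 replicate 2. Against them, rcv1, a recoverin gene listed by RefSeq as a synonym of rcvrn2, lay at 0.40 ± 0.15 (adjusted p = 0.385), and at 0.25 without that pool. The recoverin genes rcvrna and zgc:73075, the latter a RefSeq synonym of rcvrn3, pointed the other way. They lay at -0.21 ± 0.16 and -0.28 ± 0.15 (edgeR adjusted p = 0.606 and 0.479), and at -0.40 and -0.41 without PCB-11 replicate 2. Recoverins bind calcium and restrain the opsin kinases in the dark.

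**Figure D4:**
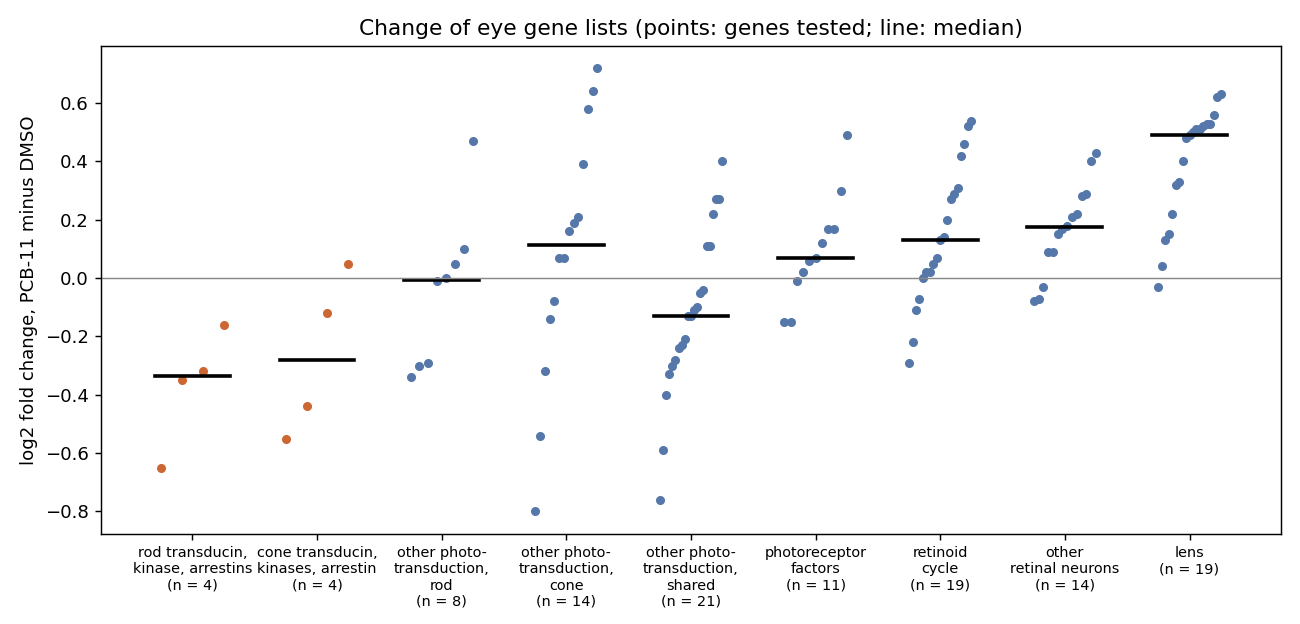
Log2 fold change, PCB-11 minus DMSO, of every tested gene (points) of the rod and cone genes described here (orange) and of other eye gene lists (blue), with the median of each list as a line. Medians are -0.34 and -0.28 for the rod and cone transducins, kinases and arrestins, between -0.13 and 0.18 for the lists of retinal genes and 0.49 for the lens.

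Lists for other cells of the eye had medians above 0. The 19 lens genes tested, for crystallins and other lens proteins, had a median log2 fold change of 0.49 (0.32 without PCB-11 replicate 2). Of them, 13 were higher at an unadjusted p under 0.05 in edgeR, 0 were called by edgeR and 4 by DESeq2. Among all genes tested, 5.8% were higher at that unadjusted p, and DESeq2 called 0.482% of its genes higher. The lens sum ran from 6799 to 8086 CPM in DMSO and from 9272 to 12561 CPM in the exposed pools. The alpha crystallin gene cryaa lay at 0.50 ± 0.09 and grifin at 0.63 ± 0.14, and without that pool at 0.44 and 0.48. The 14 genes of bipolar, horizontal and ganglion cells had a median of 0.18, with 0 called and 2 higher at an unadjusted p under 0.05, vsx1 (0.43 ± 0.17) and trpm1b (0.28 ± 0.12). Without PCB-11 replicate 2 the median was 0.04, vsx1 lay at 0.22 and trpm1b at 0.22. Their sum ran from 277 to 327 CPM in DMSO and from 299.7 to 415 CPM in the exposed pools. The part of these shifts in the values of the phototransduction genes was not tested.

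Photoreceptor transcription factors had a median of 0.07 over 11 genes, which was -0.05 without PCB-11 replicate 2, with 0 at an unadjusted p under 0.05 in either direction, 0 called by edgeR and 0 by DESeq2. The homeobox factor gene crx, a regulator of photoreceptor genes in vertebrates, averaged 126 ± 6.14 CPM in the controls and 155 ± 30.6 CPM in the exposed pools (0.30 ± 0.14, edgeR adjusted p = 0.433), and foxq2, a factor of blue cones in zebrafish, lay at 0.49 ± 0.29. Without that pool crx lay at 0.14 and foxq2 at 0.34. Genes of the retinoid cycle, which rebuilds the chromophore, had a median of 0.13 over 19 genes, with 0 called by edgeR and 0 by DESeq2. At an unadjusted p under 0.05 in edgeR, 3 were higher and 0 lower, against 5.8% and 6.04% of all genes. Smallest in p were lrata (0.52 ± 0.17), the retinol acyltransferase, and rlbp1a (0.29 ± 0.12), a retinal-binding protein. Without PCB-11 replicate 2 the median was 0.03, lrata lay at 0.47 and rlbp1a at 0.15.

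Photoreceptors of the pineal organ use parts of the same pathway, so its markers were followed as well. Of 7 listed, 5 had a row, 3 were tested, asmt was at 0 in every pool, and the sum over the 5 ran from 16.6 to 20.3 CPM in DMSO and from 17.6 to 26.5 CPM in the exposed pools. The extra-ocular rhodopsin gene exorh lay at 0.33 ± 0.22 and the melatonin synthesis gene asmt2 at 0.19 ± 0.19, and none passed (0 at an unadjusted p under 0.05, 0 by DESeq2). Without PCB-11 replicate 2 the median of the 3 tested markers moved from 0.19 to 0.08, exorh lay at 0.08 and asmt2 at -0.04.

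**Figure D5:**
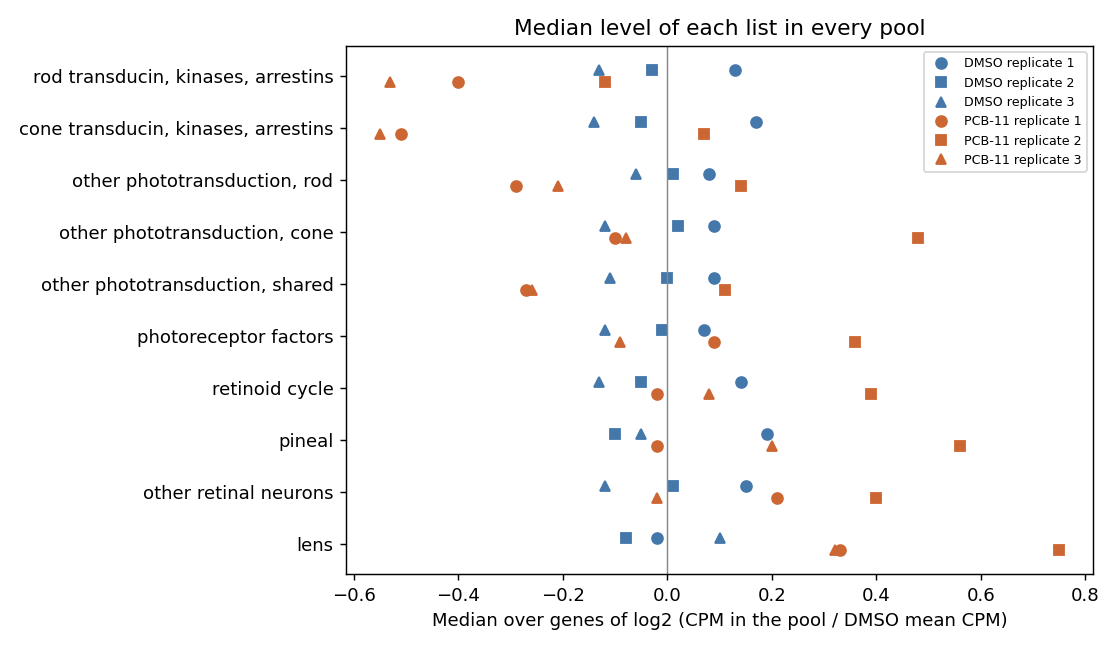
Median over the genes of each list of log2 CPM relative to the DMSO mean (horizontal axis) in every pool, DMSO in blue and PCB-11 in orange. PCB-11 replicate 2 is the highest pool in every list but the rod and cone transducins, kinases and arrestins, where it lies at -0.12 and 0.07, within the DMSO pools.

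The pool medians show how the exposed pools differed from one another. Over the rod transducin, kinase and arrestins the control pools had 0.13, -0.03 and -0.13 and the exposed pools -0.40, -0.12 and -0.53, in replicate order. Over the cone genes they were 0.17, -0.05 and -0.14 in DMSO and -0.51, 0.07 and -0.55 in PCB-11. PCB-11 replicates 1 and 3 lay below all controls and replicate 2 among them. In the same replicate 2 the medians of the lens (0.75), other retinal neurons (0.40) and photoreceptor factors (0.36) were above those of every other pool. The part of that pool's higher eye transcripts in its transducin, kinase and arrestin values was not tested. The differences in the ratio to gnat2 were -0.59 for grk7a and -0.46 for arr3a with this pool, and -0.50 and -0.40 without it.

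The genes most like these in pattern were sought by the root mean square difference of centred log2 CPM over the 6 pools, among 11875 other genes whose mean log2 CPM was 1 or more. For the mean of the cone genes the closest were slc25a3a (0.0344), lrit1b (0.0533), pdha1b (0.0624) and inaa (0.065), where the median over all candidates was 0.296. For the mean of the rod genes they were the cone phosphodiesterase gene pde6c (0.0495), zgc:73075 (0.0705), which RefSeq lists as a synonym of rcvrn3, slc1a2a (0.0735) and rho (0.0764), with a median over candidates of 0.279. Log2 fold changes of these 8 genes ran from -0.34 for rho to -0.17 for inaa, and none passed in edgeR. With 6 pools, such likeness describes these libraries alone.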

How the data were processed

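The authors deposited 1 table per pool, with raw counts of reads for each gene symbol. The submitters' processing notes name the build danRer7 and Cufflinks, without a role. Not given in the sources used here were the aligner, the counting program and its strand setting. The 2 rows that name no gene (31.44% to 39.12% of counts outside genes, 0.379% to 0.429% ambiguous) were left out of library sizes and tests.

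The whole table was fitted with edgeR 4.0.16 in R 4.3.3 (default expression filter, TMM scaling, robust quasi-likelihood F test, two-sided, group as the only term), with Benjamini-Hochberg adjustment over the 12960 genes tested, and the fit was tested on simulated data. Standard errors derive from the F statistic. DESeq2 1.42.0 and limma-voom (limma 3.58.1) were alternatives, with other scalings and filters, a replicate block and each pool left out. No pair of pools in a group agreed within counting error.

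The genes and lists were chosen with earlier results of these data known. Of 135 list entries, 113 had a row, 10 through a synonym in RefSeq's table of assembly GRCz12tu, used for names alone. Named in the text are all 9 genes, the 2 genes of each list (3 per class in phototransduction) with the smallest p, and the 4 genes nearest in pattern per class. The genes opn1sw1, opn1lw1, opn1mw1, gngt2a and rcvrna and the other 5 rod genes of the pathway were added after their values were seen. So were the place of pde6c among the cone genes and that of zgc:73075 among the shared genes. A planned comparison of levels between genes per coding length was not run, because no transcript lengths were used here. Sequences and coordinates are likewise not given. Figures were drawn with matplotlib 3.10.9.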

Additional observations from a re-analysis of the deposited data

How the results depend on the processing

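Under 14 alternative settings the directions of grk1a, grk7a, arr3a, gnat1, saga, sagb and grk1b held. The count of the 9 called lower was 0 in the edgeR fit and 2 in DESeq2. As single pools were left out it was 0 to 1, the 1 being grk1a without PCB-11 replicate 3 (edgeR adjusted p = 0.0484). That fit called 184 genes over the whole table, in both directions, against 6 with all pools. The count of the 9 lower at an unadjusted p under 0.05 was 2 to 7 as pools were left out. Over all genes, in both directions, the count at that p ran from 728 to 2972 in the same fits. Signs changed, with single pools left out, for gnat2 (-0.14 to 0.17), grk7b (-0.53 to 0.10), asmt2 (-0.04 to 0.30), opn1sw1 (-0.39 to 0.04), opn1lw1 (-1.25 to 0.68), gngt1 (-0.09 to 0.26), pde6g (-0.11 to 0.16), gnb1a (-0.07 to 0.06, and -0.00 under 6 other settings) and gnb1b (-0.09 to 0.09); the cause was not tested. Medians ranged from -0.46 to -0.25 for rod genes and from -0.54 to -0.14 for cone genes, and ratio differences from -0.46 to -0.29 for transducin, -0.23 to -0.03 for kinases and 0.08 to 0.26 for arrestins.

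Nothing in the labels says that equal replicate numbers mark a clutch or day, so the numbers were not taken as pairs. Correlations of the deviations of same-numbered pools across genes were 0.256, -0.147 and 0.367. With 3 pools a group these values do not settle whether the pools were paired. With the replicate number as a block, edgeR called 26 genes in place of 6 and none of the 9 (0 called; 5 lower at an unadjusted p under 0.05; grk1a adjusted p = 0.0506, grk7a 0.139), with medians of -0.35 for rod and -0.30 for cone genes. Counting depth limits grk7b most, and 3 pools a group limit every gene.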
